A study of Homo sapiens with 4 samples.

Results

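A set of 9 genes that the transcription factor p53 is known to switch on was described in RCM‐1 cells, a human colorectal cancer cell line from a well‐differentiated tumour of the rectum. They were MDM2, TP53INP1, AEN, SESN1, FAS, TNFRSF10B, BTG2, ZMAT3 and GDF15. A probe set was taken for each of these genes when its platform gene symbol was one of the 9 names. The search found 32 of the 54613 probe sets of the array, for 8 of the 9 genes, and 16 of them, at least 1 for each of the 8 genes, were bright enough to be kept. BTG2 was not analysed here.

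Gene expression was measured on 4 Affymetrix U133 Plus arrays, 1 for each duration of treatment of nearly confluent cells with 1 mM methylthioacetic acid (MTA), 0, 6, 12 and 18 h. MTA is a small sulphur compound that leads these cells to form domes, blisters of the cell sheet lifted by transported fluid, and the arrays were made to follow gene expression before domes appear. The medium with MTA was then exchanged for vehicle medium with 0.1% acetonitrile until 24 h after its addition, so the cells of the 6, 12 and 18 h arrays had spent 18, 12 and 6 h without MTA, and time with MTA cannot be told apart from time after its removal. The 0 h array, titled MTA 0 h, is the reference for every ratio to 0 h. The study calls its reference both a mock control and the initial value. The time at which the cells of the 0 h array were harvested is not given outright in the sources used here. With 1 array per time there are no replicates, no test was made, and precision is limited by the number of arrays.

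p53 is a transcription factor that is stabilised by DNA damage and other stresses and that binds DNA as a tetramer, at paired 10‐base units with the core letters C and G. MDM2, one of its targets, encodes the ubiquitin ligase that marks p53 itself for destruction, which closes a feedback loop. Other targets halt the cell cycle, repair DNA, change metabolism or prepare cell death, and colorectal cancers often carry mutations in this pathway. Whether p53 of RCM‐1 cells is functional is not given in the sources used here.

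Values are MAS5 signals on a linear scale as deposited, and each log2 ratio compares the signal on an MTA array with that on the 0 h array. A log2 ratio beyond 1.5 in size, which is 2.83‐fold, was called higher or lower. As the only measure of error, log2 ratios from the brightest and the second brightest kept probe set of each gene had a difference with an SD of 0.408, 0.421 and 0.479 for the 6, 12 and 18 h arrays (n = 4676 genes), a spread that holds no variation between cultures. Over all 10505 genes that had a kept probe set, the median log2 ratio was 0.11, −0.28 and −0.47 for the 6, 12 and 18 h arrays, so an 18 h ratio near −0.47 is that of a middling gene.

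The p53 targets did not move as a block under MTA. At 18 h the log2 ratios of the 8 genes ran from −2.12 for AEN to 2.60 for TP53INP1, with 1 gene called higher, 1 called lower and 6 in between. Among all genes 1.22% were called higher and 3.19% lower at that time. The median over the 8 genes was 0.29, −0.05 and −0.21 for 6, 12 and 18 h, which is 0.18, 0.23 and 0.25 above the median of all genes. At 12 h TP53INP1 was again the gene called higher and AEN the gene called lower, where the shares of all genes were 1.18% and 0.942%. At 6 h TP53INP1 was called higher and none was called lower, where the shares were 1.43% and 0.019%. With 8 genes, 1 call is 12.5% of the list, so these counts rest on single genes.

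The transcription start regions of FAS, SESN1 and AEN are shown because each holds the p53 consensus decamer, and because the signals of these 3 genes differed in their course. The windows come from RefSeq (GRCh38.p14), run from 250 bases before to 50 bases after an annotated start, and are printed 5′ to 3′ on the strand of the gene with the decamer in capitals. The search found 15 windows for 7 of the 9 genes, BTG2 among them, and 3 windows held a decamer. FAS and SESN1 also had windows without a decamer, which are not printed. TP53INP1 and TNFRSF10B had no window in the set searched. Of all 35116 RefSeq windows, 6.63% held one.
FAS, chr10:88991181-88991480, plus strand: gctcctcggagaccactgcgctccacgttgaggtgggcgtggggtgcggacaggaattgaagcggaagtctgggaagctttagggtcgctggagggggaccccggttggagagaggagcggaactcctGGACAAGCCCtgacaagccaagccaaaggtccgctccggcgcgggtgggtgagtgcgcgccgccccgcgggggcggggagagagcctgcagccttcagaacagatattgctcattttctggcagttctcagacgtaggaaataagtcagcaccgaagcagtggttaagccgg
SESN1, chr6:109008939-109009238, minus strand: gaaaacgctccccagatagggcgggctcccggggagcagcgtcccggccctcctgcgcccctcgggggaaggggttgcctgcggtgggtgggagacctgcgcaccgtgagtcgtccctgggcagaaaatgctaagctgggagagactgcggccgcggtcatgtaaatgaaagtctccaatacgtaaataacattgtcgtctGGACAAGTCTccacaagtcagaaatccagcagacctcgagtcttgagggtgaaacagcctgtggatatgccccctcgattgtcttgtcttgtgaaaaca
AEN, chr15:88621090-88621389, plus strand: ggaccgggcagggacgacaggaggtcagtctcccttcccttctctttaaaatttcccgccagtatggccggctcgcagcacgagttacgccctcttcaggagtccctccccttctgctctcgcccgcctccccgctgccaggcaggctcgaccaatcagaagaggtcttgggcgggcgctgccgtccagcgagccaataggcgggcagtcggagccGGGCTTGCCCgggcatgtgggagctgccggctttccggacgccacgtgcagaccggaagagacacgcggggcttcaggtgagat
The decamer starts 122 bases before the start site in FAS, 49 bases in SESN1 and 34 bases in AEN. It is GGACAAGCCC in FAS, GGACAAGTCT in SESN1 and GGGCTTGCCC in AEN. The 10 bases that follow it directly are tgacaagcca, ccacaagtca and gggcatgtgg, of which 8, 7 and 8 fit the same consensus. A decamer with a neighbour that fits at 8 or more of 10 positions was found in 0.356% of all windows, a count added after the sequences had been seen. No complete pair of exact decamers, with up to 13 bases between them, was found in the 15 windows of 7 genes. Such a pair was found in 0.0285% of all windows, and TP53INP1 and TNFRSF10B had no window to search. A match is a run of letters and was not tested for binding here, and most sites of p53 lie outside such short windows.

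**Figure D1:**
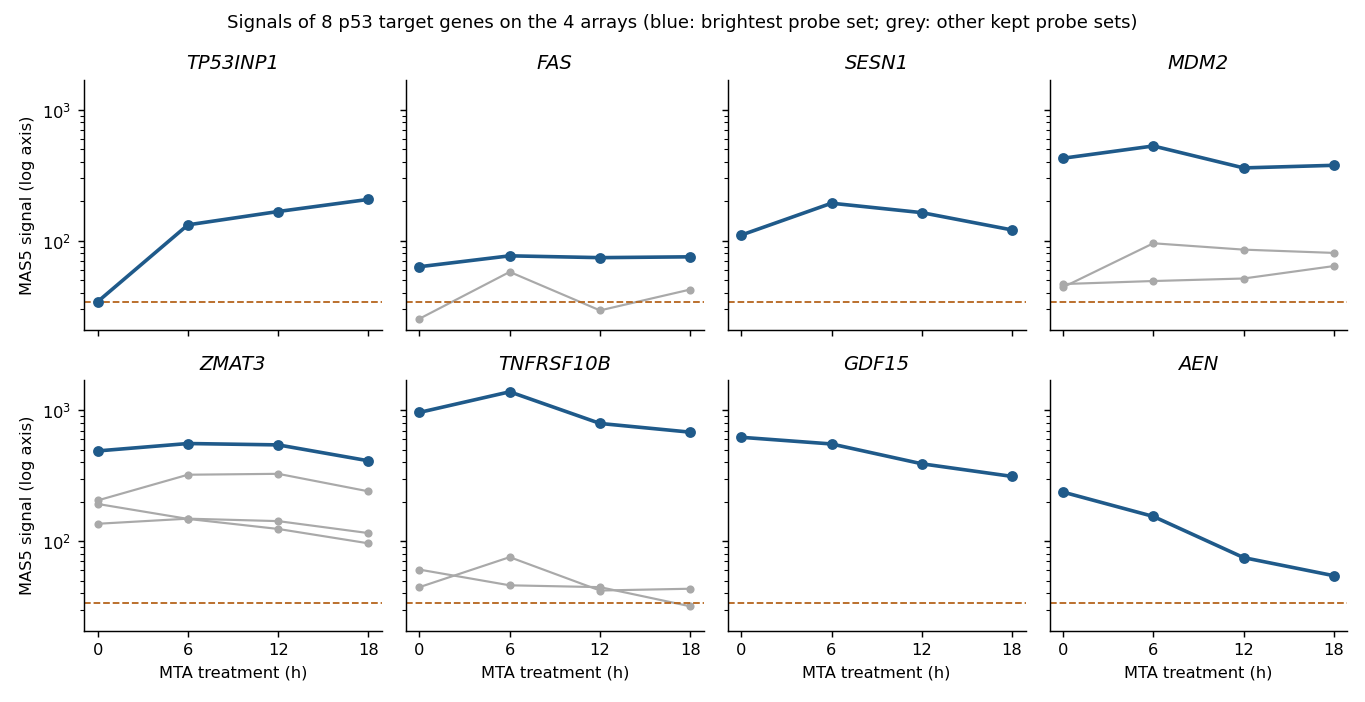
MAS5 signal (log axis) against hours of MTA treatment for the 8 measured p53 targets, 1 array per point, with the brightest probe set of each gene in blue, other kept probe sets in grey and the lowest mean signal kept, 34.0, as a dashed line. TP53INP1 climbs from 34.1 to 206.2, AEN declines from 237.1 to 54.5, and the lines of the other 6 genes stay comparatively flat.

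TP53INP1 had the highest ratio of the 8 genes at every time. It encodes a stress protein of the nucleus and of autophagosomes that promotes autophagy and cell death and can enhance the action of p53. Its signals were 34.1, 131.7, 166.6 and 206.2 at 0, 6, 12 and 18 h. Each longer treatment thus had a higher signal, and most of the difference was already there at 6 h. The log2 ratios were 1.95, 2.29 and 2.60, above those of 99.6%, 99.8% and 99.9% of the kept probe sets. Between the MTA arrays, which does not involve the 0 h array, the log2 ratio was 0.34 from 6 to 12 h and 0.31 from 12 to 18 h. Under 8 other scalings or pseudocounts the 18 h ratio ran from 2.15 to 3.11 and stayed above 1.5 in all 8. The 0 h signal lay close to the limit of 34.0 for kept probe sets, and all 3 ratios rest on this dim reading. A pair of further probe sets, with signals from 0.489 to 1.81, lay far below that limit and gave no usable ratio.

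AEN was the lowest of the 8 genes at every time. It encodes a nuclease of the nucleus and nucleolus that digests DNA and RNA during apoptosis. Its only probe set had signals of 237.1, 154.6, 74.9 and 54.5 at 0, 6, 12 and 18 h. The signal was lower on each array with a longer treatment. The log2 ratios were −0.62, −1.66 and −2.12, with 3.13%, 0.444% and 0.367% of the kept probe sets lower still. From 6 to 18 h, between MTA arrays alone, the log2 ratio was −1.504. At 18 h the ratio ran from −2.09 to −1.61 under the 8 other settings, and at 12 h from −1.69 to −1.34, where only 3 of the 8 kept it below −1.5. The decamer in its start region, printed above, thus belongs to the gene with the lowest ratio.

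**Figure D2:**
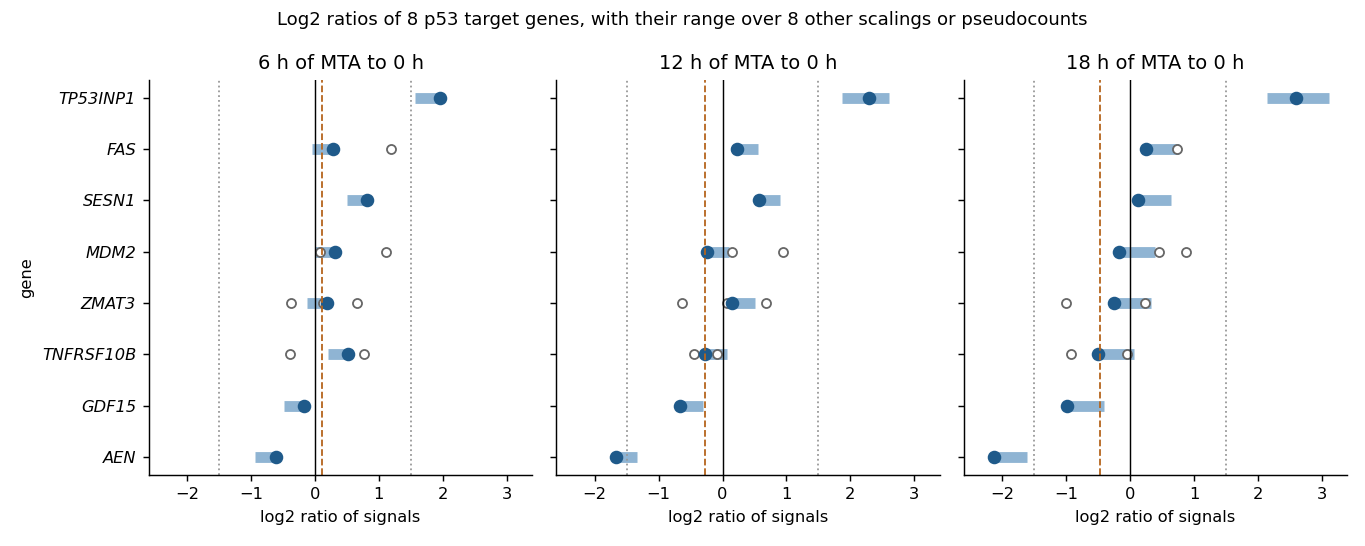
Log2 ratio of signals to the 0 h array at 6, 12 and 18 h for the 8 measured p53 targets, with filled points for the brightest probe set, open points for other kept probe sets, pale bars for the range over 8 other scalings or pseudocounts, dotted lines at 1.5 and −1.5 and all genes' median dashed. Only TP53INP1 and AEN lie beyond the dotted lines, and the open points of ZMAT3, MDM2, FAS and TNFRSF10B often lie away from the filled ones.

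MDM2, the ubiquitin ligase of the feedback loop, had 10 probe sets, 3 of which were kept and gave different pictures. The brightest had signals of 425.0, 527.3, 358.5 and 375.3 at 0, 6, 12 and 18 h. Its highest value was thus at 6 h and its 12 and 18 h values lay below 0 h. The log2 ratios were 0.31, −0.25 and −0.18, and the sign turned under 1, 4 and 4 of the 8 other settings. A dimmer kept probe set had signals of 44.0, 95.3, 85.2 and 80.4 and log2 ratios of 1.11, 0.95 and 0.87. On this one all 3 MTA arrays lay above 0 h under every scaling tried, with ratios from 0.68 to 1.39 at 18 h. The third kept probe set had 0.08, 0.14 and 0.46. Both dimmer ones carry a suffix that marks probes able to take up other transcripts, and which probe set reports on which MDM2 transcript is not given in the sources used here. MDM4, the relative of MDM2 that also restrains p53, had 486.3, 468.9, 431.9 and 374.6, a log2 ratio of −0.38 at 18 h whose sign turned under 3 of the 8 settings. Its other 2 kept probe sets had −1.35 and −0.38.

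SESN1, a sestrin that restrains the growth kinase complex mTORC1 and limits oxidative damage, had its highest signal at 6 h with the deposited scaling. Signals were 110.0, 192.8, 163.3 and 120.4 on the 4 arrays in order of time. The log2 ratios were 0.81, 0.57 and 0.13, so the 18 h array was back near the 0 h array. Its signal at 18 h was lower than at 6 h by a log2 ratio of −0.68. All 8 other settings gave positive ratios to 0 h, from 0.49 to 0.79 at 6 h and from 0.11 to 0.65 at 18 h. After division by the array median the ratio was 0.49 at 6 h and 0.58 at 12 h. The time of the SESN1 maximum thus depended on the scaling. At 6 h the value was above 91.5% of the kept probe sets and at 18 h above 83%, so its place among all genes moved less than its ratio.

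The sestrin relatives SESN2 and SESN3 were read from the list of other p53 targets. SESN3 had signals of 163.1, 510.6, 520.1 and 578.6, with log2 ratios of 1.65, 1.67 and 1.83. It was called higher at each time, unlike SESN1, and 6 of the 8 other settings kept the 6 h call, with ratios down to 1.33. A second kept probe set of SESN3 had 2.20 at 18 h, and the other settings gave from 1.73 to 2.34 at that time. SESN2 had 61.2, 99.0, 83.5 and 80.3, with 0.69, 0.45 and 0.39, the first of which was its highest with the deposited scaling, as in SESN1. SESN3 is known as a target of the FOXO transcription factors, and SESN2 also as a target of ATF4.

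FAS and TNFRSF10B encode death receptors of the cell surface, which start apoptosis on binding FAS ligand and TRAIL. FAS had signals of 63.1, 76.4, 74.0 and 75.1 on its brightest probe set, close together on the 3 MTA arrays. Its log2 ratios of 0.28, 0.23 and 0.25 are smaller than the spread between probe sets, and the first turned negative under 2 of the 8 settings. The second kept probe set of FAS had 25.3, 57.6, 29.3 and 42.3 and log2 ratios of 1.19, 0.21 and 0.74, from dimmer readings. With the deposited scaling both kept probe sets of FAS had higher signals on the 3 MTA arrays than at 0 h, by amounts that did not match at 6 h.

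TNFRSF10B, the brightest of the 8 genes, had signals of 962.6, 1383, 793.0 and 680.2 at 0, 6, 12 and 18 h. The 6 h array was the highest and the 18 h array the lowest. The log2 ratios were 0.52, −0.28 and −0.50, the last of which lies at the median of all genes and turned positive under 2 of the 8 settings. From 6 to 18 h its log2 ratio was −1.02. The other kept probe sets had −0.04 and −0.93 at 18 h. At 6 h they had 0.76 and −0.40, so they differed in direction there. Both are dimmer and carry the suffix of probes able to take up other transcripts. TNFRSF10A, the other TRAIL receptor with a death domain and a member of the list of cell death targets, had 363.9, 209.0, 109.3 and 105.7. It was called lower at 12 and 18 h, with log2 ratios of −1.74 and −1.78. These calls held under 4 and 5 of the 8 other settings, with ratios up to −1.41 and −1.27. Its other 2 kept probe sets had −1.77 and −1.24 at 18 h. The decoy receptor TNFRSF10D, chosen after its values had been seen, had −0.48 at 18 h.

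ZMAT3, an RNA‐binding zinc finger protein that acts on splicing and mRNA stability, was read by 4 kept probe sets that differed. The brightest had 489.0, 557.1, 543.9 and 411.2, with log2 ratios of 0.19, 0.15 and −0.25. The first turned negative under 2 of the 8 settings and the last positive under 4. The second had signals of 204.8, 321.9, 327.0 and 240.3, with log2 ratios of 0.65, 0.68 and 0.23. The third had signals of 192.5, 148.0, 124.1 and 96.3, with log2 ratios of −0.38, −0.63 and −0.999. These probe sets of 1 gene pointed in opposite directions from similar 0 h signals, under every setting tried. The dimmest had log2 ratios of 0.13, 0.07 and −0.24, and with the deposited scaling all 4 had a lower signal at 18 h than at 12 h.

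GDF15, a secreted hormone of the TGF‐beta family that rises under many cell stresses, had 1 kept probe set. Its signals were 621.6, 552.8, 390.1 and 312.4 at 0, 6, 12 and 18 h. They were lower on each array with a longer treatment, as were those of AEN. The log2 ratios were −0.17, −0.67 and −0.99, not beyond the threshold, and from −0.99 to −0.41 at 18 h under the other settings. Of the kept probe sets 15.6% had a lower ratio at 18 h. Its other 2 probe sets were too dim to be kept. The kept one carries the same suffix as the dimmer MDM2 ones, which marks probes able to take up other transcripts.

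For 5 of the 8 genes, MDM2, SESN1, FAS, TNFRSF10B and ZMAT3, the 6 h array had the highest of the 4 signals on the brightest probe set. So did 53.1% of all genes, and 34 of the 60 measured other p53 targets (56.7%). When each array was divided by its median, the 6 h array was the highest for 1 of the 8 genes, 13 of the 60 other targets (21.7%) and 14.5% of all genes, so the count of genes with their maximum at 6 h depended on the scaling. Array medians over all probe sets were 16.7, 20.8, 16.6 and 16.4 in order of time. The poly‐A controls, spiked in before labelling, had mean log2 ratios of 0.20, 0.03 and −0.25, and the hybridization controls 0.02, −0.27 and −0.05. For GAPDH the 3′ control signal was 1.44 to 1.64 times the 5′ control signal, a measure of RNA integrity. For ACTB this ratio was higher, 5.76, 4.76, 5.86 and 6.45 in order of time, and its part in the values of the p53 targets was not tested. The housekeeping gene GAPDH had a log2 ratio of −0.20 at 18 h, a sign that turned under 4 of the 8 settings, and ACTB had −0.55, which stayed negative.

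All 12 markers of colon epithelium that were looked up were kept, with summed signals from 43984 at 18 h to 62780 at 0 h. Of 12 markers of stroma and immune cells 11 had a probe set and 2 were kept, with summed signals of 188.3, 298.8, 288.9 and 241.9. No marker with a probe set was listed at 0. Without FN1, a matrix protein that carcinoma cells can make too, the sum was 149.4, 150.3, 144.0 and 117.1. FN1 itself had 38.8, 148.5, 144.9 and 124.8, and its part in the values of the p53 targets was not tested.

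Most of the other p53 targets were not called. Of 72 further ones 60 had a kept probe set, 2 were called higher at 18 h (3.33%) and 2 lower (3.33%), against 1.22% and 3.19% of all genes. Beyond a log2 ratio of 1 there were 3 higher (5%) and 11 lower (18.3%), against 3.15% and 15.8% of all genes. The median of the 60 genes was −0.12, which is 0.34 above that of all genes, and 65% of them lay above it. Those called higher were SESN3, described above, and ULK1, the kinase that starts autophagy. ULK1 had signals of 31.0, 56.7, 49.8 and 108.1, and a log2 ratio of 1.80 that rests on a dim 0 h reading and stayed above 1.5 under 7 of the 8 other settings. Those called lower were TNFRSF10A and TIGAR, a phosphatase that turns sugar from glycolysis to the pentose phosphate pathway. TIGAR had 564.9, 472.1, 246.5 and 146.1, and a log2 ratio of −1.95, which stayed below −1.5 under 6 of the 8 other settings and reached −1.42.

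**Figure D3:**
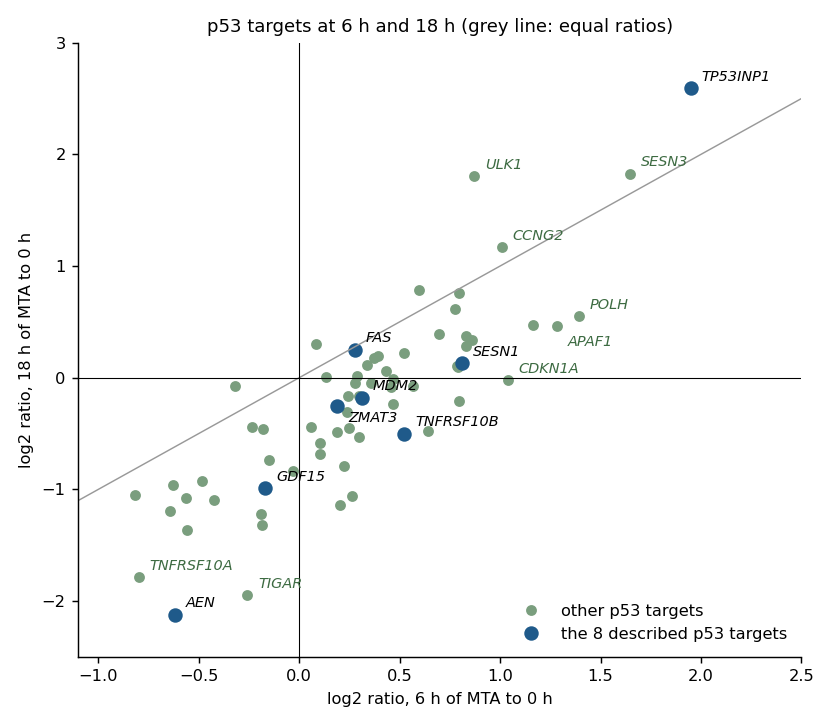
Log2 ratio to 0 h at 6 h (horizontal) and at 18 h (vertical) for the 8 described p53 targets (blue) and the 60 other measured targets (green), with a grey line where both are equal. TP53INP1, SESN3, ULK1 and CCNG2 lie on or above the line at the upper right, AEN, TIGAR and TNFRSF10A far below it, and both axes share the 0 h array.

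The targets that act in growth arrest held no call among 13 measured genes, with a median of −0.07 at 18 h. Among all genes 1.22% were called higher and 3.19% lower at 18 h, so a list this short can easily hold no call. CCNG2, an unusual cyclin linked with arrest and known as a FOXO target, had 385.7, 775.5, 958.0 and 865.7, a log2 ratio of 1.17 at 18 h and from 1.03 to 2.27 on 3 further kept probe sets. Under 3 of the 8 other settings its 18 h ratio was above 1.5, up to 1.73. CCNG1, its relative and a classical p53 target, had 0.30. SFN, the 14‐3‐3 protein that holds cells before mitosis, had −1.22, and PLK2, a kinase of the centrosome, had −1.08. CDKN1A, which encodes the inhibitor p21, had signals of 282.3, 580.1, 495.4 and 277.6, highest at 6 h with the deposited scaling. Its log2 ratios were 1.04, 0.81 and −0.02, the last of which turned positive under 6 of the 8 settings. Like SESN1, it was thus nearer to 0 h at 18 h than at 6 h.

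Other groups of targets stayed within the threshold apart from the genes already named. The 12 measured targets of cell death had a median of −0.47 at 18 h, equal to that of all genes. BAX, TNFRSF10C, EDA2R and TP53AIP1 of the cell death list were not kept and BBC3 had no named probe set, so they were not measured. The genes of autophagy, metabolism and redox, 14 in number, had a median of 0.11. Of the 8 genes of DNA repair and nucleotide supply none was called, with a median of −0.04. The shares of all genes were 1.22% higher and 3.19% lower. DDB2, which recognises ultraviolet damage, had 0.61, and POLH, a polymerase that copies past such damage, 0.55, after 1.39 at 6 h, but its other kept probe sets had −0.56 and 0.20. FBXO22, a part of a ubiquitin ligase, had −1.36, and −0.85 and −0.83 on its 2 other kept probe sets. REV3L, the catalytic subunit of polymerase zeta, had −0.68, and −0.16 on its other kept probe set. Of the 13 secreted or surface targets CYFIP2 had 0.76, CX3CL1 0.34, the receptor kinase EPHA2 −1.32 and the cytokine LIF −1.19.

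**Figure D4:**
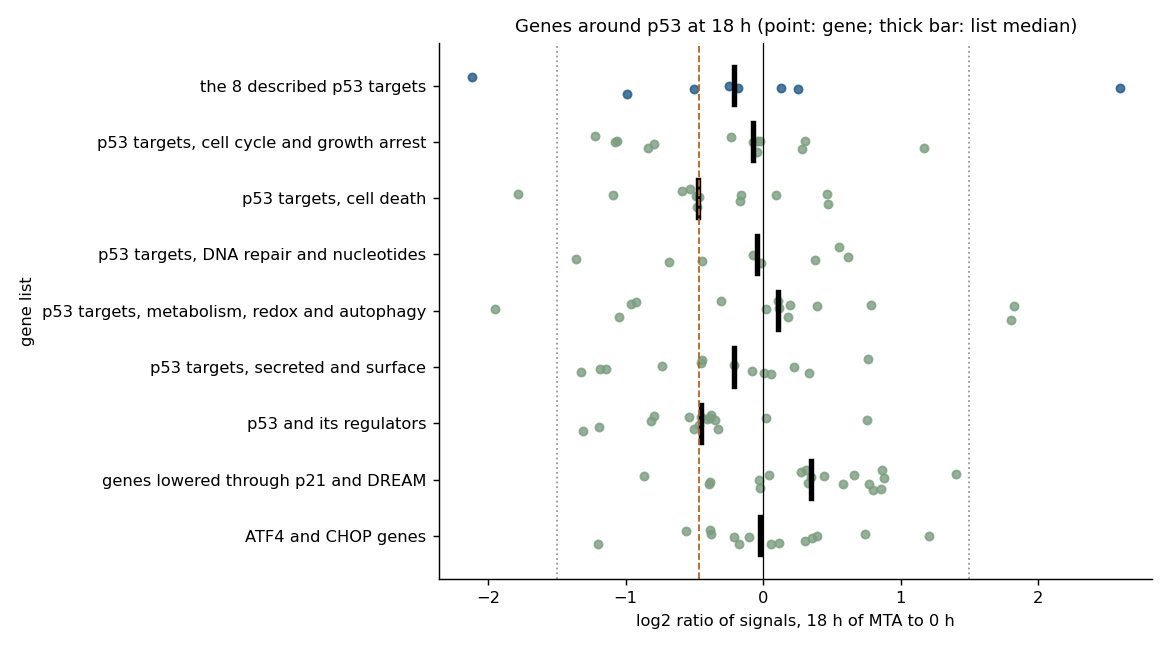
Log2 ratio (18 h of MTA to 0 h) of the measured genes of 9 lists, where points are genes, thick bars list medians, dotted lines 1.5 and −1.5, and the dashed line all genes' median of −0.47. Medians of most target lists lie between the dashed line and 0.11. That of the listed, mostly mitotic genes known to be lowered through p21 and the DREAM complex lies at 0.35.

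Regulators of p53 were close to all genes, with a median of −0.45 over 15 measured genes and no call. Over all genes the called shares were 1.22% higher and 3.19% lower. HIPK2, a kinase that activates p53, had the highest ratio, 0.75, with 177.4, 364.4, 323.3 and 299.0 on the 4 arrays. CDKN2A, which encodes p16 and the MDM2 inhibitor ARF, had 0.02, and −0.46 on its other kept probe set. RCHY1, another ubiquitin ligase of p53, had −1.19, and TP53RK, a kinase first described as acting on p53, had −1.31, and −0.70 on its other kept probe set. Signals of RCHY1 were 595.7, 400.4, 298.8 and 260.4, lower with each longer treatment.

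Listed genes known to be lowered when p53 acts through p21 and the DREAM complex were not lower at 18 h as a group. The median over the 19 measured genes, most of which serve mitosis, was 0.35, which is 0.81 above that of all genes. None was called, beside 1.22% of all genes called higher and 3.19% lower. The list leaves out cell‐cycle genes such as CCNE2, CDC25A, MCM4 and CDC6, which the study reports as down‐regulated by MTA. Of the 19 genes 14 had a ratio above 0. Of these genes 94.7% lay above the median of all genes. CENPF, a kinetochore protein, had 1.40, which passed 1.5 under 4 of the 8 other settings, but 0.67 on its other kept probe set. AURKA, a mitotic kinase, had 0.88. MYBL2, a transcription factor of the cell cycle, had −0.86 and CCNA2, cyclin A2, −0.40, a sign that turned under 3 of the 8 settings.

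Some p53 targets, TNFRSF10B, SESN2 and GDF15 among them, are also known as targets of ATF4 or its partner CHOP, so a list of 14 such genes was read beside them. Its median was −0.02 at 18 h, which is 0.44 above that of all genes. Of its genes 85.7% lay above the median of all genes. None was called at that time, beside 1.22% of all genes called higher and 3.19% lower. VLDLR, a lipoprotein receptor, had 1.21, which passed 1.5 under 2 of the 8 other settings, and ASNS, asparagine synthetase, 0.74. TRIB3, a pseudokinase, had −1.20 and PPP1R15A, which restarts translation after stress, −0.56. CHOP itself, encoded by DDIT3, had 97.3, 136.7, 185.5 and 120.2, highest at 12 h.

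The genes whose 3 log2 ratios lay nearest to the median profile of the 8 targets were CENPW, MAPK8, CERS5, SMC4 and USP33, at Euclidean distances from 0.026 to 0.042 among 8132 genes with a 0 h signal of at least 100. A profile of 3 ratios that share 1 array is met by many genes, and TP53INP1 and AEN lay far to either side of the median profile.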

How the data were processed

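RCM‐1 cells were profiled on 4 Affymetrix U133 Plus arrays, 1 per duration of MTA treatment. The values that the authors deposited are linear MAS5 intensities from Affymetrix Expression Console, and their scaling target is not given in the sources used here. Control probe sets (62) were left out, and as many probe sets as the study counts as detected were kept ranked by mean log2 signal; the lowest kept mean was 34.0. Log2 ratios to 0 h used the scaling as deposited and no pseudocount. A gene was represented by its brightest kept probe set. Names came from GEO's platform annotation, updated through RefSeq (GRCh38.p14): 41091 had 1 symbol, 1801 several and 11721 none, and those with several or none were not named. The 10 lists of 146 genes came from textbook knowledge. The members and lists were chosen with earlier results of these data known. All members were named, with CDKN1A, MDM4, GAPDH, ACTB, the list genes beyond 1.5 at 18 h (at most 4 in each direction, or the 2 highest and 2 lowest where a list had none) and the 5 nearest profiles; other genes were named after their values had been seen. Alternatives were 6 scalings, pseudocounts of 2.90 and 16, 3 filters, thresholds of 1 and 2 and the mean over probe sets. The calculation was tested on simulated data. Python 3.11.15, NumPy 2.4.6, pandas 2.3.3 and matplotlib 3.10.9 were used.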

Additional observations from a re-analysis of the deposited data

How the results depend on the processing

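No replicates exist, so no left‐out array could be tried, and no paired analysis was possible because each time has 1 array. TP53INP1 stayed above 1.5 and AEN below −1.5 at 18 h under all 8 other scalings and pseudocounts. The call of AEN at 12 h was lost, with 0 of the 8 genes lower, after centring on the median, quantile normalization, division by the trimmed mean, scaling to the hybridization controls and with a pseudocount of 16. With a threshold of 2, 0 genes were higher at 6 h and 0 lower at 12 h. With only the 10000 brightest probe sets 4 of the 8 genes were left, TP53INP1 and AEN not among them, and 0 were called in either direction at any time. The median of the 8 genes at 18 h turned to 0.36 with quantile normalization and 0.30 with division by the trimmed mean, which put that of the 60 other targets at 0.39. It was 0.23 after centring on the median of kept probe sets and 0.04 relative to the poly‐A controls. Under all of these settings the 18 h medians of the other targets together, of growth arrest and of DNA repair were positive too. Of the other targets, 1 was called lower at 18 h after median centring, 0 after quantile normalization and 0 after division by the trimmed mean. The genes that lost this call were TIGAR and TNFRSF10A. After centring on the median of kept probe sets, quantile normalization and division by the trimmed mean CCNG2 was called higher too, which made 3. The number called higher was 1 with a pseudocount of 16 and 4 without a filter. With the 10000 brightest probe sets 1 was higher and 1 lower. A threshold of 1 gave 11 lower, and a threshold of 2 gave 0 in either direction. Taking the second brightest kept probe set, an alternative chosen after seeing the data, moved 8 of 12 ratios of MDM2, FAS, TNFRSF10B and ZMAT3 by more than the spread between probe sets. Signals near 34.0 limit TP53INP1, ULK1 and the second probe set of FAS. The 0 h signals of CX3CL1, VLDLR, FN1 and POLH were dim too, at 24.1, 39.0, 38.8 and 40.5.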
